A study of Mus musculus with 12 samples.

Results

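The genes described here encode the proteins of the mouse cytosolic ribosome. They were chosen by gene symbol alone (Rpl or Rps followed by a number, with Rplp0, Rplp1, Rplp2 and Rpsa), leaving out the S6 kinases and pseudogenes whose names end in -ps. The platform annotation gave 96 such probes for 65 genes. A probe was kept where its detection p-value was under 0.05 on at least 3 of 12 arrays, which left 85 probes for 60 genes among 19274 kept probes and 10315 genes. The other 11 probes were detected on 0 of 12 arrays, with a highest deposited intensity of 20.6, and they included every probe of Rpl17, Rpl39l, Rps20, Rps23 and Rps23rg1. By role the 60 genes were 29 of the large subunit, 21 of the small subunit, 3 of the acidic stalk and 7 paralogs or look-alikes caught by the symbol. Of the 60, 55 were detected on all 12 arrays. Rpl5, Rpl11, Fau and Rack1 were not analysed here.

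The study asked what loss of the transcriptional corepressor Bcor does to marrow cells grown under conditions for myeloid progenitors. Every sample was marrow of 3-month-old mice that carried a floxed Bcor allele (BcorFl/Y), grown with serum, stem cell factor, IL6 and IL-3, infected with a retrovirus and selected with puromycin. The control virus was empty, and the other expressed Cre recombinase, so controls carried the floxed allele too and the Cre arms differ from them in the recombinase as well as in Bcor. CD34+ cells were sorted from such cultures of marrow numbers 2 and 4, with 2 repeats of number 2 and 1 array of number 4 in each arm. Unsorted cultures (BM) had 3 numbered repeats in each arm, which the labels do not call separate animals, so p-values measure the spread between these arrays only. This gave 4 groups of 3 arrays. Each array read total RNA on a BeadChip, a glass array of beads that carry gene probes.

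A probe for Bcor read 9.80 ± 0.11 (SD, n = 3) on the log2 scale in CD34+ control, 9.32 ± 0.55 in CD34+ Cre, 9.75 ± 0.20 in BM control and 8.60 ± 0.21 in BM Cre. Its fall passed the test in BM cells (limma, adjusted p = 0.00624) and not in CD34+ cells (adjusted p = 0.463). Where on the transcript this probe lies, relative to the deleted exons, was not examined. A Cd34 probe read 9.89, 10.41 and 10.04 on the CD34+ control arrays and 10.62, 10.29 and 10.22 on the BM control arrays. By this probe the sorted control cells did not stand above the unsorted control cultures. For the 3 measured progenitor markers, read from their brightest probes, CD34+ minus BM ran from -0.31 to 0.66 in the control arms, with 0 called. In the Cre arms it ran from 0.13 to 1.02, with 1 called higher. Of all genes 38% and 48.9% were called. The summed level of 11 measured mast cell markers was high in every group, from 235952 to 378618, and was lower in BM Cre (267219 to 297662) than in BM control (323408 to 378618). The 11 granulocyte markers summed to between 7472 and 11563 in BM control and between 187614 and 235410 in BM Cre. The 5 monocyte markers summed to between 2500 and 11673 in BM control and between 23066 and 25945 in BM Cre. The 5 measured erythroid markers summed to between 375.2 and 478.9 in BM control and between 1025 and 2451 in BM Cre. The 3 progenitor markers summed to between 35013 and 46720 in BM control and between 17105 and 28588 in BM Cre. Of these 3, 1 was higher in BM Cre and 2 were called lower. Of the 11 mast cell markers 2 were higher in BM Cre, with 1 called higher and 4 called lower. Kit stands on both lists. The sums add linear intensities, so the brightest markers weigh most. None of the 4 T cell markers was kept, and the 2 of 5 B cell markers kept summed to at most 128.1. In such mixed cultures, fewer cells of a type and less RNA per cell cannot be told apart. On each array between 34.4% and 39.2% of probes were detected.

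A ribosome has a small subunit, which reads the messenger RNA, and a large subunit, which joins amino acids. Their proteins are made in matched amounts, and unassembled copies are destroyed. Most vertebrate ribosomal protein messages begin with a C followed by an unbroken run of pyrimidines, the 5' TOP motif, through which mTOR signalling controls their translation via Larp1. In blood formation these genes are known from Diamond-Blackfan anaemia, in which 1 copy of a gene such as Rps19 is lost, and from the 5q- syndrome, in which RPS14 is lost in humans. Array probes measure message and not protein or translation.

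The letters around the start sites were read from RefSeq promoters (GRCm38.p6), found for 51 of the 60 genes. A gene with several listed starts was counted where any of them held the letters. A run of 8 or more C or T letters lay within 10 bases of an annotated start in 23 of them (45.1%), against 15.8% of all 27025 genes with a promoter and 13.04% of 69 mitochondrial ribosomal protein genes. The letters CGGAAG, the core of the ETS factor motif, were found on either strand of the window from 250 bases before to 50 bases after the start in 70.6%, against 18.8% of all genes and 56.5% of the mitochondrial set. AAGATGG, the YY1 core, was in 15.7% against 7.28% of all genes and 18.8% of the mitochondrial set. TATAAA was in 11.8% against 15.7% and 7.25%, and CACGTG in 11.8% against 8.09% and 7.25%, all on both strands. These matches describe letters only, and a run near the start is not by itself a TOP motif. Below are the 30 bases around the start, 15 on each side, of 8 genes to which the results come back, on the coding strand and with runs of 8 or more pyrimidines in capitals. For Rpl3l and Rps24 the table holds 2 starts, of which 1 is shown.
Rplp0 (chr5:115559452-115559481, plus): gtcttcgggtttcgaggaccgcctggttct
Rpl4 (chr9:64173372-64173401, plus): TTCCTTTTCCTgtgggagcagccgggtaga
Rpl3l (chr17:24727811-24727840, plus): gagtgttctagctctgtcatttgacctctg
Rps24 (chr14:24490663-24490692, plus): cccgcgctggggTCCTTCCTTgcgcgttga
Rpl31 (chr1:39367836-39367865, plus): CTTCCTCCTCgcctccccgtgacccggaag
Rps6 (chr4:86857353-86857382, minus): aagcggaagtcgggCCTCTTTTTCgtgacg
Rps3a1 (chr3:86142654-86142683, minus): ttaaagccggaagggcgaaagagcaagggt
Rpl22l1 (chr3:28805493-28805522, plus): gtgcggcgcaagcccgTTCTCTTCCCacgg
Rpl4, Rps24, Rpl31, Rps6 and Rpl22l1 hold such a run in this window, and Rplp0, Rpl3l and Rps3a1 do not. The 60 genes lie on 17 chromosomes, and chromosome 7 holds the most, 10.

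The probes of these genes were among the brightest on every array. The median rank of the 85 probes lay between the 97.9th and the 98.6th percentile of the 19274 kept probes. Between 33 and 37 of them were among the 193 brightest probes. The mean level over the 12 arrays was 13 or more on the log2 scale for 42 genes and under 8 for 8 genes. Rps2 (15.82), Rplp1 (15.85) and Rpl9 (15.79) stood highest, and Rps4l (4.94), Rpl3l (5.22) and Rpl14 (5.27) lowest. Probes differ in how well they bind, so these levels place a probe on the scale and do not rank messages by amount. Probes of the same gene were far apart: the 18 genes with several kept probes had 43 probes, and the Rps24 probes, for example, stood at 15.38, 9.84 and 6.64. Levels of the 60 genes correlated between arrays of 1 BM group at 0.997 or more. In CD34+ cells the correlation was 0.998 or more between repeats of marrow number 2 and 0.996 or more between number 2 and number 4 (a description over genes, with a range set mainly by the probes).

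**Figure D1:**
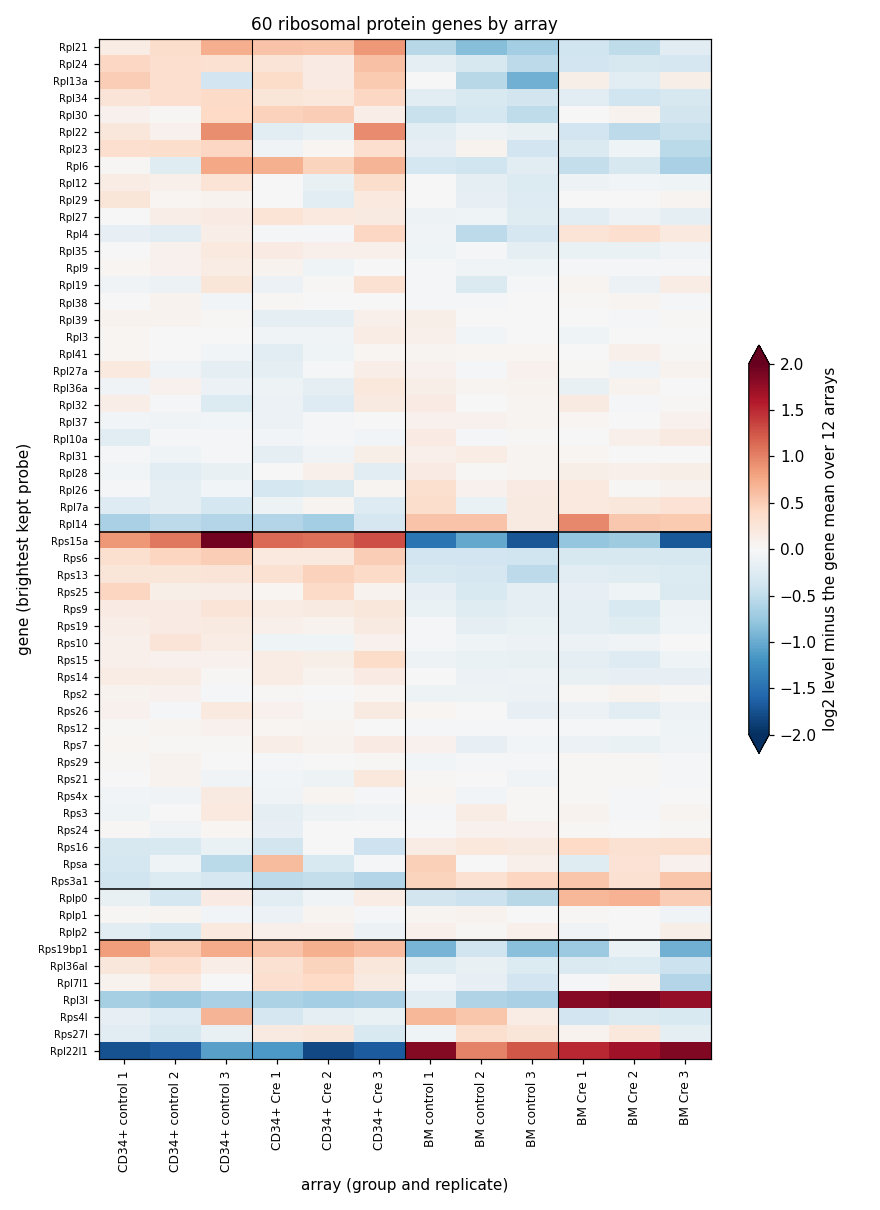
Heat map of the log2 level of each of 60 ribosomal protein genes (rows, by role, separated by black lines) on each of 12 arrays (columns), minus the gene's mean over the arrays. Most rows stay near 0. Rpl3l is high on the 3 BM Cre arrays, Rpl22l1 on all 6 BM arrays and Rps15a on all 6 CD34+ arrays.

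In CD34+ cells no ribosomal protein gene passed the test for a Cre effect. The log2 differences (Cre minus control) had a median of -0.01, beside 0.01 for all genes, and ranged from -0.30 to 0.43. By limma 0 of 60 genes were called, where 0.727% of all genes were. Of the 60, 1 reached an unadjusted p under 0.05, beside 1233 of all 10315 genes. The share of all genes was 10.2% without the CD34+ Cre array of marrow number 4, 4.81% with marrow number and BM repeat as a block and 0.242% without CD34+ control replicate 1, and 0 members were called in each. Among the 85 probes 0 were called, beside 0.617% of all probes. The 95% interval of the difference lay within 1 log2 unit of 0 for all 60 genes and within 0.5 for 46, and the median SE was 0.10. These intervals take the 2 repeats of marrow number 2 as separate arrays and share the spread with the BM arrays. They do not measure the spread between marrows. All 3 Cre arrays lay above all 3 controls for 4 genes and below them for 2. The background shares are 7.36% and 7.09% of all genes.

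The 3 genes with the smallest p in CD34+ cells were Rps10, Rpl6 and Rpl23. Rps10, a small subunit protein mutated in some Diamond-Blackfan families, read 14.18, 14.33 and 14.21 in control and 13.98, 13.99 and 14.15 in Cre cells, a difference of -0.20 ± 0.09 (SE, adjusted p = 0.405). The Cre arrays lay below the controls with no overlap. Rpl6, of the large subunit, read 5.60, 5.34 and 6.34 against 6.29, 6.02 and 6.26 (0.43 ± 0.23, adjusted p = 0.496). Its groups overlapped and its probe was detected on 2 of 3 control arrays. Rpl23, one of the large subunit proteins that bind Mdm2, read 15.41, 15.42 and 15.48 against 15.01, 15.11 and 15.42 (-0.26 ± 0.15, adjusted p = 0.517). Only its Cre array of marrow number 4 reached the control range. Over 25 settings of the processing no member gene was called in CD34+ cells, and the lowest adjusted p in any of them was 0.0773.

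In unsorted cells 4 ribosomal protein genes were called for a Cre effect, 3 higher and 1 lower, which is 6.67% of 60 where 16.7% of all genes were called (8.59% higher, 8.13% lower). Of these 4, 2 were paralogs or look-alikes: Rpl3l rose and Rps4l fell. The other 2, Rplp0 and Rpl4, rose. Rpl3l passed the detection filter through its 3 BM Cre arrays alone, and Rps4l through 2 BM control arrays and 1 CD34+ control array. Their place among the tested genes thus hung on groups where they were high. With no detection filter the counts called were also 3 higher and 1 lower. The median difference was -0.00, beside -0.07 for all genes. All 3 Cre arrays lay above the controls for 9 genes and below for 4, beside 17.3% and 23.4% of all genes. The granulocyte, monocyte, erythroid, progenitor and mast cell marker sums given above moved between the same arrays without overlap, and their part in these differences was not tested.

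Rpl3l, which replaces Rpl3 in the ribosomes of heart and skeletal muscle, was the largest change in the family. It read 5.01, 4.62 and 4.57 on the BM control arrays and 7.04, 7.13 and 6.98 on the BM Cre arrays. The probe was detected on 0 of 3 control and on 3 of 3 Cre arrays, and the groups lay far apart. Against the detection floor the rise was at least 3.30-fold (fitted difference 2.31 ± 0.15 on the log2 scale, adjusted p = 4.86e-07). On the CD34+ arrays it was detected on none, with 4.56, 4.48 and 4.57 in control and 4.59, 4.55 and 4.58 in Cre cells. Its partner Rpl3 read 15.21, 15.06 and 15.12 in BM control and 15.02, 15.13 and 15.11 in BM Cre (-0.04, adjusted p = 0.801). In the authors' value table Rpl3l stands at the floor of 24 in every BM column, with a difference of 0.

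Rplp0, the anchor protein of the acidic stalk that recruits translation factors, read 9.16, 9.09 and 8.97 in BM control and 10.19, 10.23 and 10.02 in BM Cre. All Cre arrays lay above all controls, a rise of 1.07 ± 0.16 on the log2 scale, or 2.10-fold (adjusted p = 0.000763). Its second probe read 5.64, 5.45 and 6.05 against 6.29, 6.35 and 6.10, 0.53 higher and short of the threshold (adjusted p = 0.0603 among probes). The stalk's other members, which bind Rplp0 as dimers, did not pass the test. Rplp1 differed by -0.05 (adjusted p = 0.716) and Rplp2 by -0.07 (adjusted p = 0.795). Rplp0 is often used as a reference gene for normalising PCR.

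Rpl4, a large subunit protein that lines the exit tunnel for the growing chain, read 11.76, 11.30 and 11.49 in BM control and 12.10, 12.17 and 12.02 in BM Cre. The groups did not overlap and the difference was 0.58 ± 0.16 (adjusted p = 0.0268), a call lost in 7 of 24 other settings, among them without BM control replicate 2 (0.48) and in the authors' table (0.24). Its dimmer probe read 6.28, 5.82 and 6.43 against 6.58, 6.29 and 6.45, with groups that overlapped. Rps4l, an expressed gene related to Rps4x that the reference table annotates as a transcribed pseudogene, read 5.60, 5.49 and 5.09 in BM control and 4.56, 4.65 and 4.64 in BM Cre. It was detected on 2 of 3 control arrays and on 0 of 3 Cre arrays, and the fall was at least 1.11-fold (fitted difference -0.78 ± 0.23, adjusted p = 0.0375). That call was lost when any 1 of 6 arrays was left out, including each BM Cre array. Rps4x, the X-linked form, differed by -0.00.

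**Figure D2:**
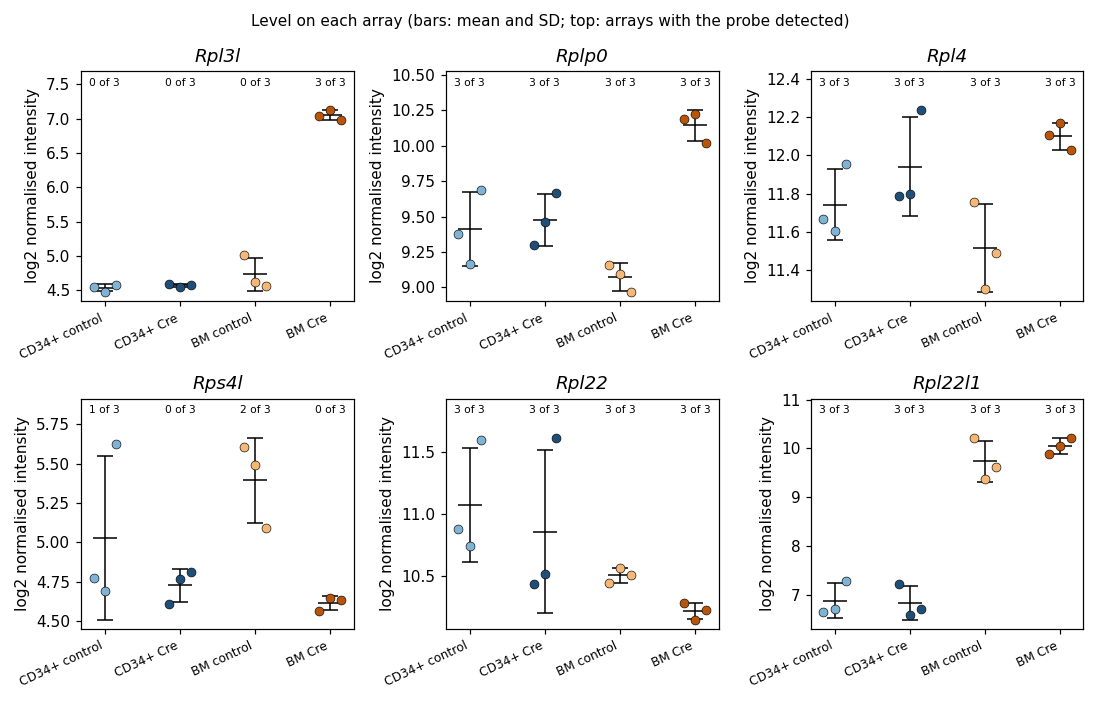
Log2 normalised intensity of 6 genes on each array, with group mean and SD (n = 3 per group) and, at the top, the number of arrays with the probe detected. Axes do not start at 0. Rpl3l is detected only on the BM Cre arrays, and Rpl22l1 lies between 6.57 and 7.28 on the CD34+ arrays and between 9.37 and 10.22 on the BM arrays.

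Read from their brightest probes, core members of both subunits that are prominent in blood disease did not pass the test for Cre in either population. Rps19 read 15.52, 15.38 and 15.41 in BM control and 15.36, 15.31 and 15.47 in BM Cre (-0.06, adjusted p = 0.712). Rps14 differed by -0.09 (adjusted p = 0.518). Among the 9 measured of 16 Diamond-Blackfan genes, differences ran from -0.11 to 0.05 in BM cells and from -0.20 to 0.12 in CD34+ cells, and 0 were called, beside 16.7% and 0.727% of all genes. These values too are from the brightest probes. Dimmer probes of Rps24 and Rpl31, both on this list, were called in BM cells and are given below. Rps6, the protein phosphorylated by the S6 kinases, read 14.20, 14.19 and 14.18 against 14.26, 14.25 and 14.26 in BM cells. Its Cre arrays all lay above its controls, yet by 0.06 (adjusted p = 0.728).

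The 6 member probes called in BM cells all lay among the dimmer probes of the family. All 42 genes at a mean level of 13 or more (a limit set after the values were seen) differed by between -0.14 and 0.16, and 0 were called, with 0 at an unadjusted p under 0.05. Among all 438 genes at that level 15 were called higher and 66 lower, so over the whole series calls were not confined to dimmer genes. Of these 438, 134 had an unadjusted p under 0.05. Of the 18 member genes under that level, 3 were called higher and 1 lower, and 14 were above 0. Among all 9877 genes under that level 16.6% were called and 43.2% were above 0, so the count of calls among the dimmer members was near the background. The same split among probes gave a median of -0.02 with 17 of 48 above 0 at 13 or more, and a median of 0.23 with 30 of 37 above 0 under 13. The other probes under 13 had a median of -0.07 with 42.2% above 0. With the limit at 12 the dimmer member probes had a median of 0.26 with 26 of 33 above 0, and at 14 a median of 0.20 with 32 of 42 above 0. In CD34+ cells the median was 0.07 for the 37 dimmer probes and -0.01 for the 48 brighter ones.

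**Figure D3:**
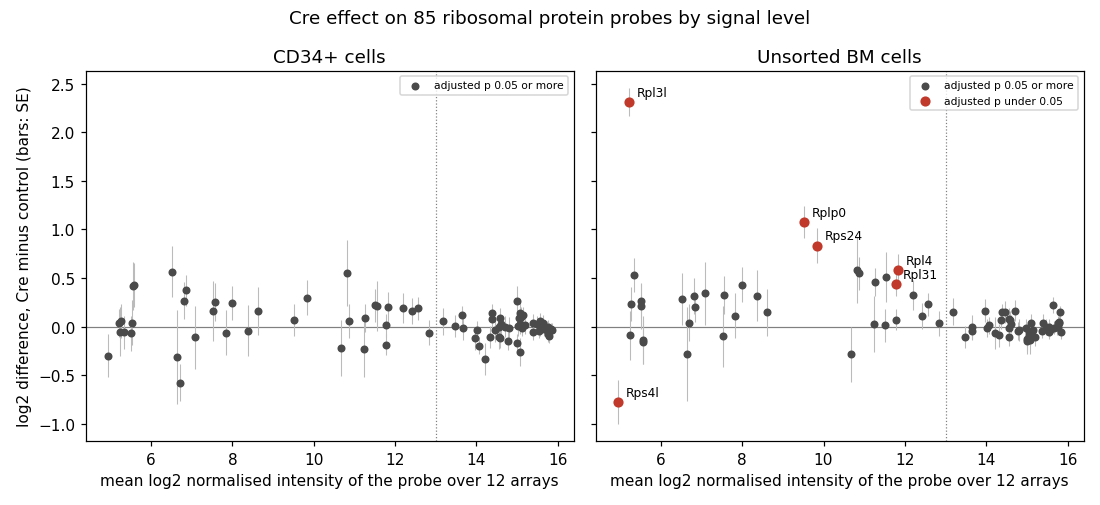
Log2 difference (Cre minus control, bars SE) of 85 ribosomal protein probes against their mean log2 normalised intensity, in CD34+ cells (left) and unsorted BM cells (right). The dotted line marks a level of 13. The 6 probes with an adjusted p under 0.05 (red) are all in BM cells and all under 13.

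The same contrast appeared between probes of 1 gene. For 9 genes with a brightest probe at 13 or more there were 13 further probes under 13. Of these 13, 11 had a higher BM difference than the brightest probe, and the median gap over all 13 was 0.34. In CD34+ cells 11 of 13 were also higher, with a median gap over all 13 of 0.08. Rps24, mutated in some Diamond-Blackfan families, read 15.38, 15.46 and 15.47 in BM control and 15.40, 15.37 and 15.40 in BM Cre with its brightest probe. A dimmer Rps24 probe read 9.68, 9.20 and 9.09 against 10.16, 10.21 and 10.09, a rise of 0.83 (adjusted p = 0.00818 among probes). Its dimmest probe read 7.35, 7.50 and 6.29 against 6.89, 7.48 and 5.93 and went the other way (-0.28, adjusted p = 0.778). The 3 Rps24 probes thus gave no difference past the test, a rise and a lower value.

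Rpl31, of the large subunit, was alike. Its brightest probe gave -0.09, while its dimmer probes gave 0.43 (adjusted p = 0.0262) and 0.46 (adjusted p = 0.0521). Rpl27a, also of the large subunit, gave -0.04 with its brightest probe and 0.55 (adjusted p = 0.0537) with the probe at 10.87. Rpl38, whose loss in mice alters the skeleton, gave 0.03 with its brightest probe and 0.58 (adjusted p = 0.318) with the other. The exceptions were a probe of Rps13, 0.11 lower than the brightest, and the dimmest Rps24 probe. Over all probes 6 of 85 were called in BM cells, 5 higher and 1 lower, where 14% of all probes were (7.09% higher, 6.95% lower). The highest deposited intensity on an array was between 57758 and 70482, and between 35 and 43 of the 85 probes exceeded 20000. Whether the response of the bright probes is compressed, or the dim probes bind other messages too, was not tested, and probe sequences were not used here.

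**Figure D4:**
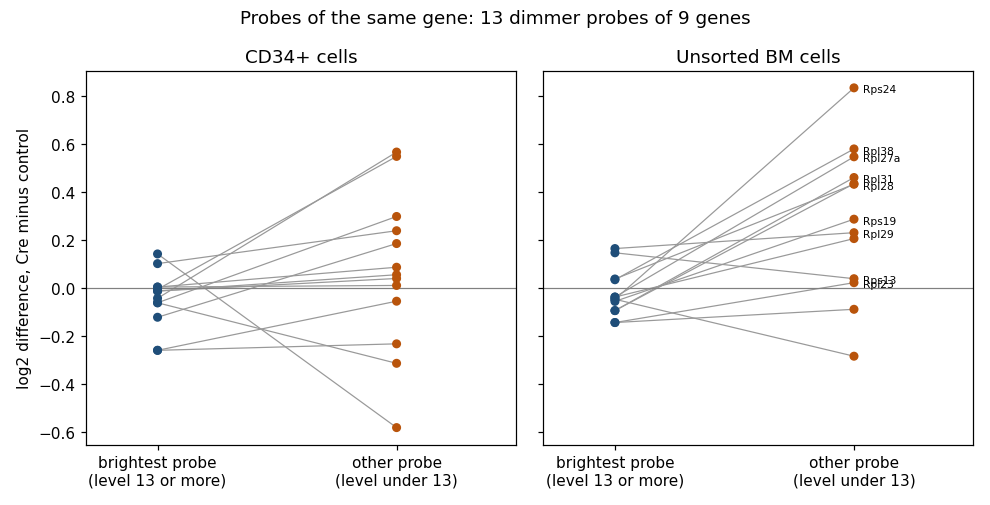
Log2 difference (Cre minus control) of the brightest probe (left points) and of each dimmer probe (right points) of the same gene, joined by lines, in CD34+ and in BM cells. The 9 genes have 13 dimmer probes. In BM cells the right point is higher for 11 of the 13 lines.

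The Cre effect differed between the populations for 2 of 60 genes, where 5.75% of all genes passed that test. Rpl3l had a fitted difference of effects (CD34+ minus BM) of -2.28 ± 0.21 (adjusted p = 2.75e-05). Its probe was detected on the 3 BM Cre arrays alone, so this value rests on levels below detection in the other groups. In the authors' table the Rpl3l difference of effects was 0. For Rplp0 the difference of effects was -1.01 ± 0.23 (adjusted p = 0.0234). Its CD34+ arrays read 9.38, 9.17 and 9.69 in control and 9.30, 9.46 and 9.67 in Cre cells, a difference of 0.07. The Rplp0 difference of effects lost its call in 10 of 23 other settings, with adjusted p-values between 0.00324 and 0.265. Rpl6 came next (0.59 ± 0.33) and did not pass (adjusted p = 0.424). At the probe level 2 of 85 were called, beside 4.75% of all probes.

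Between the populations more of the family differed, and the balance of directions depended on how arrays were scaled. With quantile normalisation, 20 of 60 genes differed between CD34+ control and BM control, 15 higher and 5 lower in CD34+ cells, where 38% of all genes did (20.2% higher, 17.8% lower). Between the Cre arms 27 differed, 20 higher and 7 lower, where 48.9% of all genes did (27.5% and 21.4%). Among the 85 probes 35 differed in the control arms, beside 39.9% of all probes, and 40 in the Cre arms, beside 49.1%. All 3 CD34+ arrays lay above all 3 BM arrays for 27 genes and below for 12 in the control arms, beside 29.8% and 24.6% of all genes, and for 24 and 10 in the Cre arms, beside 31.4% and 24.1%. The median differences were 0.10 and 0.02, beside 0.07 and 0.13 for all genes. Scaling each array to the median of its kept probes instead gave 51 higher and 2 lower in the control arms and 51 and 5 in the Cre arms, where 45.9% and 58.0% of all genes were called. That scaling moved the median of all genes to 0.30 and 0.38, and the family's medians, 0.88 and 0.89, lay 0.57 and 0.51 above it. The authors' table gave 8 higher and 5 lower, and 9 and 7, beside 24.1% and 30.1% of all genes. Scaling to the family's own median, an alternative added after the data were seen, gave 10 higher and 11 lower, and 10 and 10, beside 52.4% and 51.1%. The share of calls that were higher in the control arms was thus 75%, 96.2%, 61.5% and 47.6% in this order. How sorted and unsorted cells were handled differs with the population throughout, so the population and the handling cannot be told apart.

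The family's share of each array's summed intensity, which is itself a scaling to the array total, separated the populations. The 85 probes held between 6.45% and 7.73% of the deposited intensity summed over all 45281 probes on the 6 CD34+ arrays and between 5.03% and 5.30% on the 6 BM arrays. The highest share, 7.73%, was on the CD34+ Cre array of marrow number 4. The control and Cre arms overlapped in both populations. The median deposited intensity of the 60 genes was between 24559 and 29546 on CD34+ arrays and between 21036 and 25268 on BM arrays, which overlap. The median of all 10315 genes was between 229.4 and 321.3 on CD34+ and between 413.0 and 498.0 on BM arrays.

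**Figure D5:**
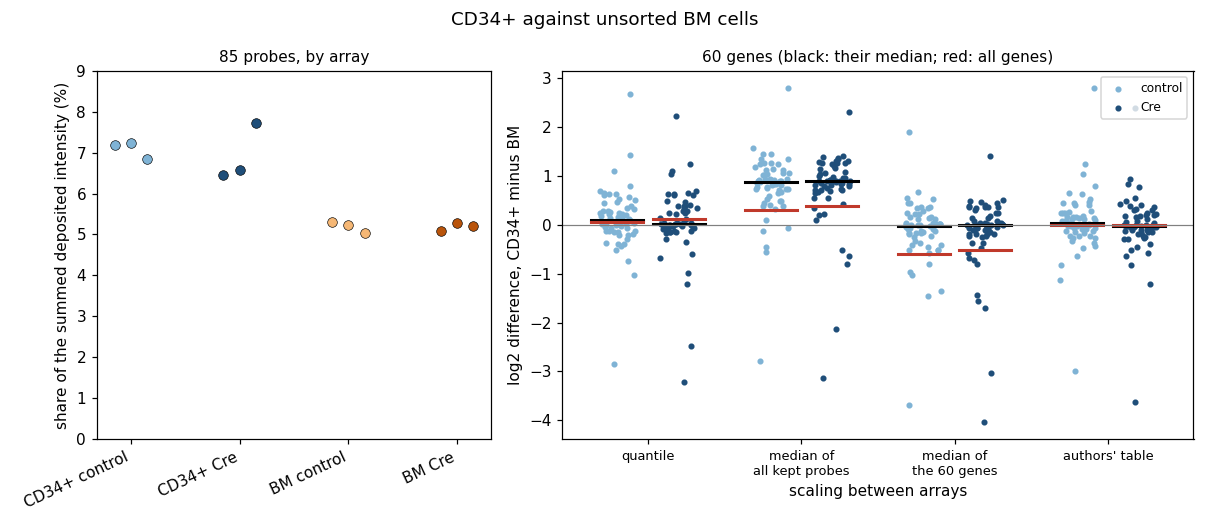
Left, share of the summed deposited intensity held by the 85 ribosomal protein probes on each array. Right, log2 differences (CD34+ minus BM) of the 60 genes in the control (light) and Cre (dark) arms under 4 ways of scaling, with their median (black line) and that of all genes (red line). The CD34+ arrays lie at 6.45% or more and the BM arrays at 5.30% or less, and the family's median moves from 0.88 to -0.03 with the scaling in the control arms.

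Some genes kept their direction and their call under all 4 scalings. In the control arms these were 6 higher in CD34+ cells (Rpl24, Rpl34, Rpl36al, Rps13, Rps15a and Rps6) and 2 lower (Rpl22l1 and Rps3a1). In the Cre arms they were 5 higher (Rpl24, Rpl34, Rpl36al, Rps13 and Rps15a) and 3 lower (Rpl22l1, Rplp0 and Rps3a1). The share of all genes that kept their call under all 4 scalings was not counted, so these counts have no background beside them. In single scalings between 24.1% and 52.4% of all genes were called in the control arms, and between 30.1% and 58.0% in the Cre arms. The values that follow are those with quantile normalisation.

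Rpl22l1, the paralog of Rpl22, was the largest difference between the populations among the genes' brightest probes. It read 6.64, 6.71 and 7.28 in CD34+ control and 7.23, 6.57 and 6.70 in CD34+ Cre. It read 10.20, 9.37 and 9.62 in BM control and 9.88, 10.05 and 10.22 in BM Cre. All 6 CD34+ arrays lay below all 6 BM arrays, and all 12 detected the probe. The level in CD34+ cells was 7.23-fold lower in the control arms (-2.85 ± 0.26, adjusted p = 1.16e-05) and 9.29-fold lower in the Cre arms (-3.22 ± 0.26, adjusted p = 2.23e-06). Over the 4 scalings the Cre arms' difference lay between -4.04 and -3.14. In mice Rpl22 is known to repress Rpl22l1, and the pair act in lymphoid and myeloid cells. Rpl22 read 10.89, 10.75 and 11.60 in CD34+ control and 10.45, 10.56 and 10.51 in BM control, 0.57 ± 0.29 higher in CD34+ cells but short of the threshold (adjusted p = 0.143). Its level was highest on both CD34+ arrays of marrow number 4 (11.60 and 11.62), and the other 4 CD34+ arrays read between 10.44 and 10.89.

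Rps15a, of the small subunit, had the widest margin in favour of CD34+ cells among the genes' brightest probes. It read 7.96, 8.14 and 9.02 in CD34+ control, 8.22, 8.19 and 8.37 in CD34+ Cre, 5.62, 6.07 and 5.39 in BM control and 6.32, 6.39 and 5.40 in BM Cre. The populations did not overlap, and the difference was 6.41-fold in the control arms (2.68 ± 0.33, adjusted p = 7.71e-05) and 4.68-fold in the Cre arms (2.23 ± 0.33, adjusted p = 0.000175). Rps6 read 14.90, 15.004 and 15.08 in CD34+ control and 14.20, 14.19 and 14.18 in BM control (0.80 ± 0.10, adjusted p = 7.22e-05). Rpl24, whose mutation in mice lowers protein synthesis, differed by 0.70 ± 0.12 (adjusted p = 0.000869) in the control arms and 0.69 in the Cre arms. Rps13 differed by 0.63 in both. Rpl36al, a paralog of Rpl36a, differed by 0.46 and 0.66, while Rpl36a itself differed by -0.12 (adjusted p = 0.471) and -0.00.

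A second probe of Rps13 gave a much larger difference than the first. It read 8.85, 8.99 and 8.63 in CD34+ control and 8.31, 8.22 and 8.20 in CD34+ Cre, and it was detected on 0 of 6 BM arrays. The level was at least 11.3-fold higher in CD34+ control than in BM control (adjusted p = 9.75e-08 among probes) and at least 7.97-fold higher in the Cre arms (adjusted p = 9.72e-08). The brightest Rps13 probe was detected on all 12 arrays. The cause of the gap between these probes was not tested.

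Rps3a1, of the small subunit, was lower in CD34+ cells. It read 11.38, 11.50 and 11.45 in CD34+ control against 12.24, 12.09 and 12.22 in BM control (-0.74 ± 0.11, adjusted p = 0.000251) and differed by -0.996 in the Cre arms (adjusted p = 1.78e-05). Rpl14 was detected on 0 of 6 CD34+ and on 6 of 6 BM arrays, at least 1.15-fold lower in CD34+ control (adjusted p = 0.000784) and at least 1.35-fold lower in CD34+ Cre (adjusted p = 0.000173). Its only kept probe was dim (highest deposited intensity 86.3), so the message is not shown to be absent from CD34+ cells. Rplp0 was lower in CD34+ cells in the Cre arms (-0.67 ± 0.16, adjusted p = 0.00518), and its value in the control arms was 0.34 (adjusted p = 0.127). Its second probe was detected on 0 of 6 CD34+ and on 6 of 6 BM arrays, and it was at least 1.15-fold lower in CD34+ control (adjusted p = 0.000804 among probes) and at least 1.67-fold lower in CD34+ Cre, so the probes disagree in the control arms. Rps16 (-0.44, adjusted p = 0.00851) and Rpl7a (-0.40, adjusted p = 0.0323) were lower with quantile normalisation, and Rps16 was higher by 0.33 with median scaling.

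Rps19bp1, which encodes a protein that binds Rps19 and regulates SIRT1 and is no ribosomal protein itself, read 8.68, 8.34 and 8.58 in CD34+ control against 6.90, 7.44 and 6.99 in BM control (1.42 ± 0.23, adjusted p = 0.000561). Rpl21, of the large subunit, differed by 1.10 ± 0.20 (adjusted p = 0.000983) with its brightest probe and by 0.93 and 0.32 with the others. In the Cre arms Rpl6 was higher in CD34+ cells by 1.10 ± 0.23 (adjusted p = 0.00207), though its probe was detected on 1 of 3 BM Cre arrays. Rps27l, a p53-induced paralog of Rps27, differed by -0.39 in the control arms (adjusted p = 0.0735) and 0.00 in the Cre arms. Rpl7l1, a paralog of Rpl7 that acts in subunit assembly, differed by 0.28 (adjusted p = 0.208) and 0.49 (adjusted p = 0.0302). Its dimmer probe pointed the other way, with -0.55 (adjusted p = 0.186 among probes) and -0.28 (adjusted p = 0.479).

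Lists of other genes of the pathway are read beside the 0.727% of all genes called in CD34+ cells and the 16.7% called in BM cells. An unadjusted p under 0.05 was reached by 1233 and 3022 of all 10315 genes. Of 17 other translation genes with a TOP start, such as elongation factors, 16 were measured, and 0 were called in CD34+ cells and 0 in BM cells by limma, with 1 and 3 at an unadjusted p under 0.05. Their medians were 0.03 and 0.08. Of 16 mTOR pathway genes and S6 kinases, 11 were measured, and 2 of them were called in BM cells, near the share of all genes. In BM cells Eif4ebp2, a repressor of cap-dependent translation, rose by 0.56 (adjusted p = 0.0406) and the kinase Rps6ka3 fell by 0.66 on the log2 scale (adjusted p = 0.0205). Of 27 ribosome assembly genes 23 were measured and 0 were called in either population, with 2 and 0 at an unadjusted p under 0.05. In this list 20 of 23 lay above 0 in CD34+ cells (median 0.21) and 19 of 23 in BM cells (median 0.20). Of all 10315 genes 5243 and 4438 lay above 0, with medians of 0.01 and -0.07.

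Mitochondrial ribosomal proteins, which serve a separate ribosome and carry no TOP start as a family, were measured for 72 of 76 genes. Their median was 0.11 in CD34+ cells, with 58 of 72 above 0, and 0.23 in BM cells, with 57 of 72 above 0. In BM cells 1 was called, Mrps35, higher by 0.94 (adjusted p = 0.00273). In CD34+ cells 0 were called by limma, with 1 at an unadjusted p under 0.05, beside 1233 of all 10315 genes. The cytosolic family had 28 of 60 genes above 0 in each population. Its 18 genes under level 13 had 11 above 0 in CD34+ cells and 14 in BM cells. The lists were not matched for signal level, so these counts do not set the pathways apart.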

How the data were processed

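According to the file headers, the first of the deposited tables gives, for 45281 probes on 12 arrays, a scanner intensity with its detection p-value. Its intensity is linear, with background subtracted and no scaling between arrays, as the values show. The p-value column is headed Detection Pval, and a small value was read as detected. Its steps match a ranking against 936 negative controls. In the other table the authors scaled the intensity between arrays and set low values to 24, by a method not given in the sources used here. RMA is named in the submitters' processing notes, with no version.

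Background was corrected by normexp with those detection p-values, followed by quantile normalisation and log2 with 16 added (the neqc function of limma 3.58.1 under R 4.3.3). Each gene was read from its kept probe of highest mean level. A single limma model of the 4 groups (lmFit, eBayes with an intensity trend, 8 residual degrees of freedom) gave differences, SE and Benjamini-Hochberg adjusted p-values over all 10315 genes, with a threshold of 0.05. A second fit took all 19274 probes apart, and a p given as "among probes" comes from it. The fit was tested on simulated data.

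Symbols came from the platform annotation (34885 probes with 1 symbol, 18 with several, 10378 with none here). A fold written "at least" sets the brighter group against the lowest signal of detected probes. The genes and lists were chosen with earlier results of these data known. Named genes were, per comparison, the 6 called genes with the largest difference each way (or the 3 of smallest p), the stalk, the paralogs, Rps6, Rps14, Rps19, Rpl22, the extremes of level and spread, and genes whose probes disagreed most; others named were chosen after their values were seen. Alternatives were background correction, scaling, the authors' table, filters, probe means, replicate blocks, averaged repeats, separate fits, no trend and leaving out each array. Same-numbered arrays of the 2 arms deviated together: r was between 0.35 and 0.50 for the same marrow in CD34+ cells, where the labels give the number, and 0.13, 0.43 and 0.36 for the BM repeats. The number of arrays limits the precision.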

Additional observations from a re-analysis of the deposited data

Results flagged for a closer look

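The Cre effect differed between the populations, by the interaction term of the model, for Rpl3l (CD34+ minus BM -2.28 on the log2 scale, adjusted p = 2.75e-05) and for Rplp0 (-1.01, adjusted p = 0.0234). In BM cells all 3 Cre arrays lay above all 3 controls for both genes, while the CD34+ differences were 0.04 (adjusted p = 0.949) for Rpl3l and 0.07 (adjusted p = 0.916) for Rplp0. Rpl3l was undetected on every array outside BM Cre, and so passed the detection filter through that group alone.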

How the results depend on the processing

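In CD34+ cells 0 genes and 0 probes of the family were called in every setting run. In BM cells the 4 called genes became 2 in the authors' table and 2 with probes detected on all 12 arrays, and 2 to 4 without 1 array. The 6 probes became 3 to 8 without 1 array. Rplp0 kept its BM call in all 24 alternatives. The adjusted p over alternatives ran from 9.51e-08 to 1 for Rpl3l (1 at the floor of the authors' table), from 0.00252 to 0.445 for Rpl4 and from 0.00525 to 1 for Rps4l. Rpl4 lost its call without BM control replicates 2 (0.48) and 3 (0.57) and without BM Cre replicates 1 (0.58) and 2 (0.55), and Rps4l without CD34+ Cre replicate 2 (-0.78), BM control replicates 1 (-0.68) and 2 (-0.73), and BM Cre replicates 1 (-0.75), 2 (-0.80) and 3 (-0.79). For the difference of effects, the 2 genes became 0 in the authors' table and 1 with detection on all arrays, averaged repeats, family scaling or 1 array left out (1 to 2), and the 2 probes became 0 in the authors' table and on all-array detection, and 1 with no filter, averaged repeats, family scaling or an array left out (1 to 2). Rplp0 lost that call without CD34+ control replicate 1, CD34+ Cre replicates 1 and 2, BM control replicates 2 and 3 and BM Cre replicates 1 and 2, with values from -1.02 to -0.92. Between the control arms the 20 genes became 53 with median scaling and 13 in the authors' table (15 to 26 without 1 array), the 35 probes 70 and 20 (28 to 43), and the median of 0.10 became 0.88, or -0.03 with family scaling. Between the Cre arms the 27 genes became 56 and 16 (21 to 28), the 40 probes 73 and 21 (32 to 41), and the median of 0.02 became 0.89. The sign turned for Rps16 (0.33 and 0.19) and Rpl7a (Cre arms, 0.10) with median scaling, for Rpl23 (-0.03) with the mean of probes and for Rpl7l1 (-0.07) with family scaling, both in the Cre arms. The cause was not tested. With a replicate block by marrow number and BM repeat, 4 genes were called in BM cells, 0 in CD34+ cells and 2 for the difference of effects, 30 between the control arms and 30 between the Cre arms, and with a block by number and repeat 4, 0, 2, 23 and 29. Counts of called members moved by no more than 1.5 times with either block, while the count over all genes went from 75 to 496 and 193 in CD34+ cells, from 1725 to 3154 and 2653 in BM cells and from 593 to 1248 and 949 for the difference of effects. Probes not detected in a group carry only a bound, and the brightest probes give no measure here of how far the scale is linear.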
